A study of Sus scrofa with 2 samples.

Results

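SHAS2, TNFAIP6, PTX3, VCAN and CD44 encode the enzyme, cross-linkers, proteoglycan and receptor of the hyaluronan gel that pushes cumulus cells apart around the oocyte before ovulation. They were chosen by symbol, and 5 of the 22342 genes in the deposited list carry these names. SHAS2 is the symbol used there for hyaluronan synthase 2. Cells were cell barcodes with 2000 to 5000 detected genes and under 7% mitochondrial UMIs (unique molecular identifiers, the counted mRNA molecules), which 17205 of 29837 barcodes met. As background, hyaluronan synthase 2 sits in the plasma membrane and extrudes the polymer, TNFAIP6 moves heavy chains of inter-alpha-trypsin inhibitor onto it, and PTX3 ties those chains together. Versican, the product of VCAN, is a large proteoglycan that binds hyaluronan, and CD44 is a hyaluronan receptor on the cell surface. Cumulus cells are known to switch this matrix on after the luteinising hormone surge, through EGF-like ligands, prostaglandin E2 and factors from the oocyte.

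The cells came from antral follicles of a pubertal Landrace × Yorkshire pig, 210 days old and primed with pregnant mare serum gonadotropin, whose ovaries were collected at a slaughterhouse. Follicles were wider than 7 mm and were punctured and flushed, and the cumulus-oocyte complexes were pipetted in hyaluronidase, an enzyme that digests the same polymer. Antral follicle 1 and antral follicle 2 each gave 1 library of 3′ mRNA tags, so a difference between follicles and a difference between libraries cannot be told apart, and no difference was tested. Follicle 1 had 9362 cells within the limits (65.5% of 14289 barcodes) with 111226504 UMIs, a median of 11254.5 per cell and a range of 4148 to 32340. Follicle 2 had 7843 such cells (50.4% of 15548) with 108920601 UMIs, a median of 13902 and a range of 3487 to 32958. The libraries shared 56 barcodes, which belonged to 40 of the cells used from follicle 1 and 25 from follicle 2, and without these cells every member's ratio between follicles stayed inside its counting interval. Likely doublets were not removed. Granulosa mRNA was abundant: 7 of 9 granulosa markers were listed, with a summed level of 23615 CPM (UMIs of these genes over all UMIs of the cells, scaled to 1e+06) in follicle 1 and 25422 CPM in follicle 2. INHA, a subunit of inhibin, was the most abundant of them at 19854 and 23176 CPM, while AMH was at 0 in follicle 1.

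Between the follicles, the matrix-making and cross-linking genes SHAS2, TNFAIP6 and VCAN were several-fold higher in follicle 1, whereas the receptor CD44 was at a nearly equal level. SHAS2, the synthase, stood at 80.5 CPM (95% interval 78.9 to 82.2) in follicle 1 and 2.83 CPM (2.52 to 3.16) in follicle 2. The ratio was 28.5 (25.4 to 32.0), and SHAS2 ranked 9 from the bottom when 10049 genes were ordered by the ratio of follicle 2 to follicle 1. These intervals are exact and cover counting error only, not differences between follicles. TNFAIP6, which cross-links hyaluronan to heavy chains, stood at 924 CPM (918 to 930) in follicle 1 and 229 CPM (226 to 232) in follicle 2, a ratio of 4.03 (3.98 to 4.09). PTX3 was scarce in both, at 5.81 CPM (5.37 to 6.27) and 3.34 CPM (3.01 to 3.70), a ratio of 1.74 (1.53 to 1.98). VCAN stood at 2054 CPM (2046 to 2063) in follicle 1 and 426 CPM (423 to 430) in follicle 2, a ratio of 4.82 (4.77 to 4.87). CD44 went the other way by a small amount, with 499 CPM (495 to 504) in follicle 1 and 538 CPM (534 to 542) in follicle 2, a ratio of follicle 2 to follicle 1 of 1.08 (1.06 to 1.09). Levels are compared within a gene, since 3′ tags are not scaled between genes, and the tags do not tell the isoforms of VCAN (4 annotated transcripts) or CD44 (12) apart.

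All 5 members had the 200 UMIs in a follicle required for the comparison with other genes, and 3 of them were at least 2-fold lower in follicle 2, beside 1.82% of all genes compared (183 of 10049). The median size of the log2 ratio over those genes was 0.12, and 90% of them lay within 0.40. The log2 ratios of follicle 2 to follicle 1 were -4.83 for SHAS2, -2.27 for VCAN, -2.01 for TNFAIP6, -0.80 for PTX3 and 0.11 for CD44. CD44 thus lay within the usual spread, PTX3 beyond it, and the other 3 far beyond it.

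Shares of cells with a UMI followed the levels of SHAS2, TNFAIP6 and VCAN. SHAS2 was seen in 23.7% (22.8 to 24.6) of the cells of follicle 1 and 1.57% (1.31 to 1.87) of those of follicle 2, or 17.2% and 0.879% after each cell was thinned at random to 5000 UMIs. TNFAIP6 was seen in 69.0% (68.0 to 69.9) and 25.5% (24.5 to 26.5), which became 48.9% and 17.1% with thinning. VCAN was seen in 94.8% (94.3 to 95.2) and 79.4% (78.5 to 80.3), or 85.2% and 60.5% when thinned. At equal depth, then, the ratio of shares was largest for SHAS2, while the gap in percentage points was largest for TNFAIP6. PTX3 was seen in 2.72% (2.40 to 3.07) and 2.24% (1.93 to 2.60) of cells, intervals that overlap, and in 1.64% (1.39 to 1.92) and 1.05% (0.832 to 1.30) after thinning, which do not. CD44 was seen in 88.4% (87.7 to 89.0) and 85.1% (84.3 to 85.9), or 74.1% and 72.8% thinned, and no order is read from these shares, since its level had the opposite order.

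Free RNA in the droplets was gauged from red-cell barcodes, taken to lack SHAS2, TNFAIP6, PTX3 and VCAN mRNA. Only 12 were found in follicle 1 (median 1812 UMIs) and 46 in follicle 2 (median 3602). The CPM of red-cell barcodes leaves haemoglobin out of the total, which is then 10675 UMIs in follicle 1 and 74650 in follicle 2. The CPM of cells is over all UMIs. SHAS2 and PTX3 had 0 UMIs in both sets, which allows up to 281 CPM in follicle 1 and 40.2 CPM in follicle 2. PTX3 and SHAS2 lay below these limits in every cluster of both follicles, so this reference does not tell either from background. The limits are upper bounds from few UMIs and not measured levels. Some clusters of the same libraries lay far below them. SHAS2 was at 10.6 and 1.13 CPM in cluster 0 of follicle 1 and follicle 2, and PTX3 at 1.47 and 2.36 CPM in cluster 1. Free RNA may therefore be well below the limits. Leukocyte-like barcodes, 4 in follicle 1 (median 18452 UMIs) and 24 in follicle 2 (median 4664), also had 0 UMIs of both genes, which allows 21.9 and 18.0 CPM. SHAS2 in clusters 1 and 3 of follicle 1, and in that follicle as a whole, lay above this second limit, and in follicle 2 it did not in any cluster. PTX3 lay below it in every cluster of both follicles, so by neither reference could it be told from background. The same barcodes had TNFAIP6 at 51.1 CPM (20.6 to 105) in follicle 1 and 71.9 CPM (37.1 to 126) in follicle 2, and VCAN at 365 CPM (271 to 482) and 132 CPM (82.6 to 199). Whether these barcodes make either mRNA themselves, or are doublets with a granulosa cell, was not tested. A TNFAIP6 UMI was in 75.0% and 20.8% of them and a VCAN UMI in 75.0% and 45.8%, so a cell with a UMI is not read as a cell that makes the mRNA. Those of follicle 1 are few and mostly deeper than the cells: the 1 within the cell limits (6750 UMIs) had VCAN at 2222 CPM (1244 to 3665) and allows 444 CPM of SHAS2, so this reference is imprecise there too. TNFAIP6 was seen in 33.3% of the red-cell barcodes of follicle 1, at 375 CPM (102 to 959, from 4 UMIs), and in 0 of those of follicle 2, which allows a share of up to 6.52%. VCAN was seen in 6 of them in follicle 1, at 749 CPM (324 to 1477, from 8 UMIs), and in 13.0% in follicle 2, at 80.4 CPM (29.5 to 175). CD44 was seen in 16.7% at 187 CPM (22.7 to 677) and in 15.2% at 147 CPM (73.6 to 264), which is not used as background, since red cells carry CD44 protein. The red-cell barcodes are shallower than the cells and hold few UMIs in follicle 1.

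TNFAIP6 was held more unevenly by the cells of a follicle than VCAN and CD44. The top 1% of cells by TNFAIP6 held 20.2% of its UMIs in follicle 1 and 34.4% in follicle 2, with up to 404 and 329 UMIs in a cell. The same share was 8.18% and 9.99% for VCAN and 6.71% and 6.77% for CD44. For SHAS2 and PTX3 this share is not read, since it must be high where few cells have a UMI. The value for TNFAIP6 in follicle 2, seen in 25.5% of cells, is partly under the same limit. A single cell had at most 38 and 11 UMIs of SHAS2 and 35 and 25 of PTX3.

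The cells fell into 6 clusters, numbered 0 to 5, found without the 5 members and the other hyaluronan genes listed. Their leading genes were TGFB3, ENPP2 and IL33 in cluster 0, ARPP21, ALPK2 and APOD in cluster 1, DEFB1, CCL26 and CEMIP in cluster 2, TOP2A and CDCA8 in cluster 3, SPP1, CTSS and ALDH1A2 in cluster 4, and CXCL10 and RSAD2 in cluster 5. Clusters 0, 1, 3, 4 and 5 had 6391, 2318, 456, 173 and 24 cells of follicle 1, and clusters 0 to 5 had 5831, 1004, 681, 121, 181 and 25 cells of follicle 2. The 3 genes SHAS2, TNFAIP6 and VCAN were highest in cluster 1 of follicle 1 and next highest in its cluster 3, the cluster of cell-division genes.

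The order of SHAS2 in follicle 1 was cluster 1 at 261 CPM (255 to 268), cluster 3 at 187 CPM (177 to 197), then clusters 4, 5 and 0 at 13.5, 13.1 and 10.6 CPM. The last 3 do not differ beyond their intervals, and all lie below the 21.9 CPM that the leukocyte-like barcodes allow. In follicle 2, cluster 5 at 13.6 CPM (4.41 to 31.7, from 1 cell), cluster 1 at 12.3 CPM (10.6 to 14.3) and cluster 3 at 8.08 CPM (4.79 to 12.8) overlapped. Below them came clusters 4, 0 and 2 at 1.19, 1.13 and 0.829 CPM, also overlapping. SHAS2 in cluster 1 of follicle 2 was therefore near its level in cluster 0 of follicle 1. In thinned cells, SHAS2 was seen in 49.9% of cluster 1 and 4.17% of cluster 0 in follicle 1, and in 3.89% and 0.412% in follicle 2.

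TNFAIP6 in follicle 1 was ordered cluster 1 at 2730 CPM (2710 to 2750), cluster 3 at 1882 CPM (1851 to 1914), cluster 0 at 240 CPM (237 to 244), then clusters 4 and 5 at 106 CPM (92.0 to 121) and 72.3 CPM (45.3 to 109), which overlap. Clusters 1 and 3 lie above both the red-cell and the leukocyte-like interval of that follicle. Cluster 0 lies inside the first and above the second, so the references disagree on it, and clusters 4 and 5 overlap both. Follicle 2 had a narrower span, with cluster 1 at 370 CPM (360 to 380), cluster 0 at 224 CPM (220 to 227), cluster 3 at 210 CPM (191 to 229), clusters 5 and 4 at 67.9 and 47.1 CPM, and cluster 2 far below (8.23 to 14.4). Clusters 0 and 3 overlapped there, as did clusters 5 and 4. Clusters 1, 0 and 3 lie above both references of follicle 2, clusters 5 and 4 inside its leukocyte-like interval, and cluster 2 below both. Cluster 0 had almost the same TNFAIP6 level in both follicles, with a ratio of follicle 1 to follicle 2 of 1.07 (1.05 to 1.10). The share of its thinned cells with a TNFAIP6 UMI was not alike, at 40.5% in follicle 1 and 17.5% in follicle 2. After thinning, cells with 10 or more UMIs made up 2.73% of cluster 0 in follicle 1 and 4.12% in follicle 2. In cluster 1 such cells made up 37.2% and 5.29%.

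PTX3, whose protein ties heavy chains together, was under both background limits in every cluster, so its order is a description only. In follicle 1 it was at 13.0 CPM (8.47 to 19.0) in cluster 4, 10.3 CPM (8.13 to 12.9) in cluster 3, 6.68 CPM (6.11 to 7.29) in cluster 0 and 1.47 CPM (1.04 to 2.02) in cluster 1, and clusters 4 and 3 overlap. By share of cells, cluster 3 at 4.39% (2.70 to 6.69) also overlaps cluster 0 at 3.16% (2.75 to 3.62). Cluster 5 had 0 UMIs, which allows up to 9.86 CPM. In follicle 2, clusters 5, 4 and 3 had 10.9, 10.7 and 8.53 CPM with overlapping intervals, and clusters 2, 0 and 1 had 3.32, 3.13 and 2.36 CPM, also overlapping. Clusters 3 and 2 overlap at their edges, and cluster 5 (2.96 to 27.8) overlaps all the others.

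VCAN, the proteoglycan gene, reached 5816 CPM (5787 to 5846) in cluster 1 of follicle 1 and 3134 CPM (3094 to 3175) in cluster 3, above cluster 4 at 1117 CPM (1071 to 1164). Clusters 5 and 0 followed at 710 CPM (618 to 811) and 697 CPM (691 to 703) and overlap. Clusters 4, 5 and 0 lie inside the red-cell interval for VCAN in that follicle, and clusters 1 and 3 above it. All of them lie above the interval of the 4 leukocyte-like barcodes. Against the 1 such barcode within the cell limits (1244 to 3665), clusters 4, 5 and 0 lie below its interval, cluster 3 inside it and cluster 1 above it. In follicle 2 the order was cluster 1 at 997 CPM (981 to 1013), cluster 4 at 875 CPM (839 to 912), cluster 2 at 802 CPM (777 to 828), cluster 3 at 436 CPM (409 to 464), cluster 5 at 304 CPM (250 to 366) and cluster 0 at 291 CPM (288 to 295). Only clusters 5 and 0 overlapped there, and all 6 lay above the red-cell interval.

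CD44, the receptor gene, was highest in clusters 0 and 5 of both follicles, with 577 and 549 CPM in follicle 1 and 579 and 570 CPM in follicle 2, each pair overlapping. Clusters 4 and 1 of follicle 1 followed at 357 CPM (331 to 384) and 353 CPM (346 to 360), not separable, and cluster 3 was lowest at 255 CPM (243 to 267). In follicle 2 cluster 1 had 521 CPM (509 to 533), which overlaps cluster 5, then came cluster 3 at 389 CPM (364 to 416) and cluster 4 at 340 CPM (318 to 364), which touch. Cluster 2 was lowest by far at 41.2 CPM (35.7 to 47.4), with a median depth of 6432 UMIs.

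**Figure D1:**
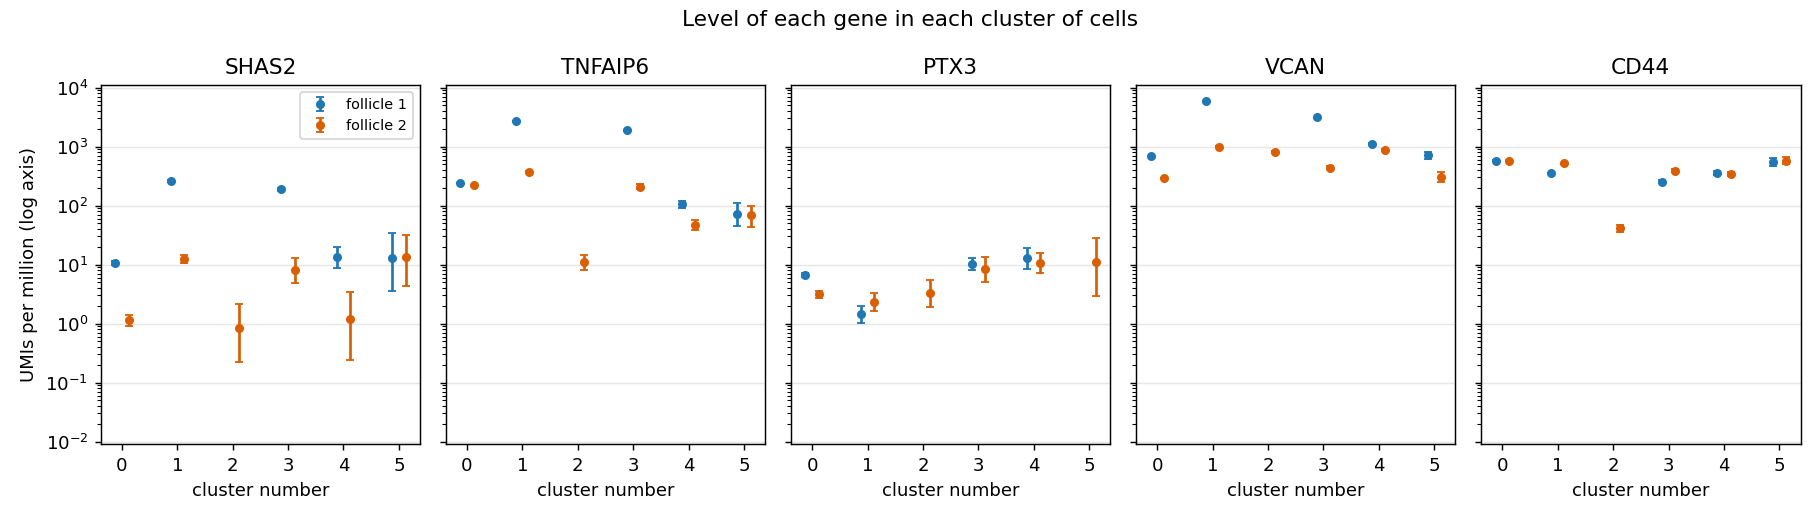
Level of each gene (CPM, log axis) in each cluster number for follicle 1 (blue) and follicle 2 (orange), with 95% exact counting intervals as bars and levels of 0 not drawn. SHAS2 spans 10.6 to 261 in follicle 1 and 0.829 to 13.6 in follicle 2, while CD44 is at 577 and 579 in cluster 0.

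Set against all other cells of the same follicle, cluster 1 had 3 members at least 2-fold higher in follicle 1, beside 3.24% of the genes compared. The ratios were 10.1 (9.65 to 10.6) for SHAS2, 7.22 (7.13 to 7.32) for TNFAIP6 and 6.34 (6.29 to 6.40) for VCAN. CD44 had a ratio of 0.649 (0.635 to 0.664) and PTX3 one of 0.207 (0.145 to 0.287). In follicle 2 the count was 2, beside 0.455% of genes, and SHAS2 is counted there although its UMIs, 183 in the cluster and 125 outside it, are under the 200 used for the other genes. Its ratio in follicle 2 was 9.28 (7.35 to 11.7), and VCAN had 2.96 (2.90 to 3.02). TNFAIP6 had 1.79 (1.73 to 1.84), CD44 0.963 (0.941 to 0.987) and PTX3 0.675 (0.462 to 0.957). By these ratios SHAS2 leaned toward cluster 1 about as strongly in both follicles, and TNFAIP6 and VCAN more strongly in follicle 1. In follicle 2, however, the SHAS2 level of cluster 1, 12.3 CPM, is under both background limits. Without integration, another cluster was the richest in SHAS2 in that follicle. Cluster 1 held 75.4%, 68.6% and 65.7% of the SHAS2, TNFAIP6 and VCAN UMIs of follicle 1, and 59.4%, 22.0% and 31.8% of those of follicle 2. With 20 components in place of 40 in the clustering, 50.6% of the cells of cluster 1 joined a larger cluster and, in that cluster, the log2 ratios of all 5 members had the opposite sign in follicle 1, while the cluster then highest in SHAS2 again had 3 members at least 2-fold higher. Another seed needed resolution 0.26 in place of 0.24 to give 6 clusters. There, 1682 of the 3322 cells of cluster 1 stayed together in the nearest cluster. The extent of cluster 1 therefore depends on these settings, and the parts of seed and resolution were not separated.

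Within clusters 0, 1, 3 and 4, SHAS2 and VCAN were again higher in follicle 1, and for TNFAIP6 the difference depended on the cluster. The ratio of follicle 1 to follicle 2 for SHAS2 was 9.38 (7.57 to 11.7) in cluster 0, 21.2 (18.3 to 24.7) in cluster 1, 23.1 (14.6 to 39.1) in cluster 3 and 11.3 (3.49 to 58.4, from 3 UMIs in follicle 2) in cluster 4. For VCAN it was 2.39 (2.36 to 2.43), 5.84 (5.74 to 5.94) and 7.19 (6.74 to 7.68) in clusters 0, 1 and 3, and 1.28 (1.20 to 1.36) in cluster 4. In cluster 5, with 24 and 25 cells, SHAS2 had 0.968 (0.192 to 4.50), no detectable difference, TNFAIP6 likewise 1.06 (0.572 to 1.97), and VCAN 2.33 (1.85 to 2.96). The cluster 0 levels of SHAS2 and PTX3 in follicle 1 were under both background limits, and that of VCAN was inside the red-cell interval but above the leukocyte-like interval. TNFAIP6 had 7.38 (7.18 to 7.59) in cluster 1, 8.98 (8.19 to 9.87) in cluster 3 and 2.24 (1.78 to 2.83) in cluster 4. PTX3 was 2.14-fold (1.84 to 2.49) higher in follicle 1 in cluster 0, and its difference was not detectable in cluster 1. CD44 was 1.48-fold (1.43 to 1.52) higher in follicle 2 in cluster 1 and 1.53-fold (1.41 to 1.66) in cluster 3, and did not differ beyond counting error in cluster 0. SHAS2, PTX3 and VCAN were at least 2-fold lower in follicle 2 in cluster 0, beside 0.328% of genes, and SHAS2, TNFAIP6 and VCAN in cluster 1, beside 3.90%. Other values differed with the follicle inside cluster 1: median depth was 10404 UMIs in follicle 1 and 14576 in follicle 2, and the haemoglobin gene HBB was at 1.82 and 148 CPM. The make-up of cluster 1 also differed, since the follicles shared its finer groups, described below, unequally. In the TMEM178A and HBB groups the ratios of follicle 1 to follicle 2 were 5.65 and 13.0 for SHAS2 and 3.95 and 3.73 for VCAN. For TNFAIP6 they were 13.2 and 2.42. The part of depth, blood RNA or make-up in these differences was not tested.

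A finer division of the same cells into 12 groups showed that cluster 1 was not uniform. The group highest in SHAS2, led by RBP4, PTGS2 and ALPK2, had 441 cells of follicle 1, with 508 CPM of SHAS2 (489 to 528), 6229 CPM of TNFAIP6 (6161 to 6299), 8531 CPM of VCAN (8451 to 8612) and 270 CPM of CD44 (256 to 285). Its SHAS2 level, unlike that of any whole cluster, is above the 281 CPM that the red-cell barcodes of follicle 1 allow. Only 7 cells of follicle 2 fell there. A group led by TMEM178A and NAV2 had 1092 and 102 cells, with SHAS2 at 281 CPM (272 to 291) in follicle 1 and 49.8 CPM (39.0 to 62.7) in follicle 2. The latter is above the 18.0 CPM that the leukocyte-like barcodes allow, and its interval includes the red-cell limit of 40.2 CPM. VCAN stood at 6608 and 1674 CPM in this group and TNFAIP6 at 2668 and 203 CPM. The group led by HBB, APOA1 and RSPO3 had 824 and 952 cells, with SHAS2 at 103 CPM (96.7 to 109) and 7.94 CPM (6.54 to 9.55). Here VCAN was at 3340 and 895 CPM, TNFAIP6 at 925 and 383 CPM, and CD44 at 482 and 538 CPM. So in follicle 1 SHAS2, TNFAIP6 and VCAN were ranked alike over these 3 groups, with CD44 highest where they were lowest. In follicle 2 the TMEM178A group was above the HBB group in SHAS2 and VCAN but below it in TNFAIP6. The largest groups inside cluster 0 also differed in VCAN, with 372, 1177 and 455 CPM in follicle 1 and 172, 575 and 194 CPM in follicle 2. For TNFAIP6, the ratios of follicle 1 to follicle 2 in these groups went both ways, at 0.830, 1.30 and 1.39.

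The cumulus markers differed in whether they were higher in cluster 1. Their summed level was 1163 CPM there and 869 CPM in cluster 0 of follicle 1, and 837 and 828 CPM in follicle 2. IGFBP2 was the most abundant in cluster 1 of follicle 1, at 558 CPM. IHH, SLC38A3 and AMH were at 0 in that cluster but nearly absent everywhere. Over all cells they had 1, 0 and 0 UMIs in follicle 1 and 7, 2 and 1 in follicle 2. In follicle 1, INHBB was at 203 CPM in cluster 1 and 18.1 CPM in cluster 0, and HTRA1 at 240 and 119 CPM, while IGFBP2 (587 CPM in cluster 0) and FST (156 and 140 CPM) were near level. In follicle 2, INHBB was at 15.3 and 14.2 CPM and HTRA1 at 118 and 116 CPM. The highest sum was 2302 CPM, in cluster 2 of follicle 2, with IGFBP2 at 1363, FST at 393, HTRA1 at 342 and INHBB at 180 CPM. The mural markers summed to 2795 CPM in cluster 1 and 5883 CPM in cluster 0 of follicle 1, and to 6898 and 8264 CPM in follicle 2.

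Across cells of follicle 1, SHAS2, TNFAIP6 and VCAN varied together. In follicle 2 TNFAIP6 and VCAN did not, and SHAS2, seen in 1.57% of cells, was too rare for its low correlations to be read. Over the 9362 cells of follicle 1, Pearson correlations of log-normalised values were 0.58 for SHAS2 and VCAN, 0.48 for TNFAIP6 and VCAN and 0.47 for SHAS2 and TNFAIP6. Thinned to 5000 UMIs, the same pairs had 0.50, 0.44 and 0.41. The points share a library and each cell's own depth, so these values are descriptions. CD44 had -0.23 with VCAN, -0.21 with SHAS2 and -0.15 with TNFAIP6. PTX3 lay between -0.04 and -0.02 with each of the others, which in so sparse a gene is no finding. Over the 7843 cells of follicle 2, SHAS2 and VCAN had 0.12, SHAS2 and TNFAIP6 0.04, and TNFAIP6 and VCAN -0.01. VCAN and CD44 had -0.12, with the opposite sign when 500 to 6000 genes or all barcodes were used. Of 10 pairs, 3 in follicle 1 and 1 in follicle 2 reached 0.1.

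**Figure D2:**
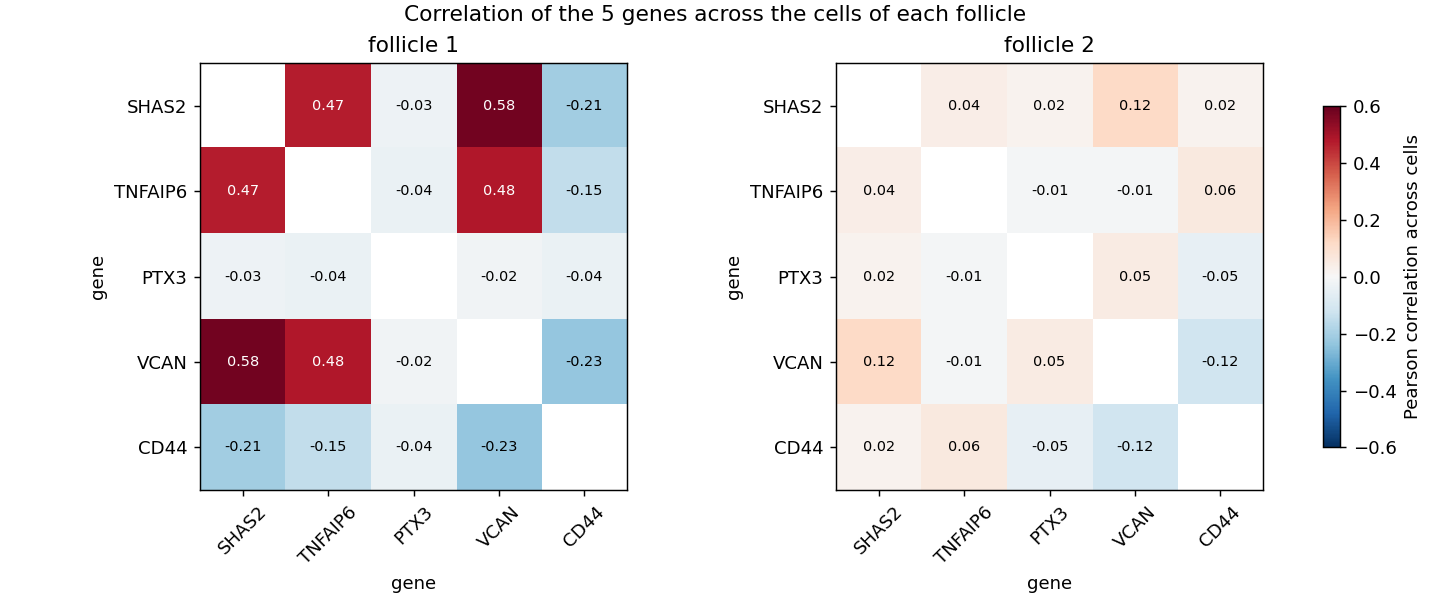
Pearson correlation (colour and number, no unit) of each pair of genes (both axes) across the cells of follicle 1, left, and follicle 2, right. SHAS2, TNFAIP6 and VCAN form a block of 0.47 to 0.58 in follicle 1, and the same pairs have -0.01 to 0.12 in follicle 2.

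Inside clusters of follicle 1 these correlations were lower in clusters 0 and 1 and higher in cluster 3. Inside its cluster 1 (2318 cells) SHAS2 and VCAN had 0.41, TNFAIP6 and VCAN 0.37, and SHAS2 and TNFAIP6 0.29, while VCAN and CD44 had -0.26. Inside cluster 3 (456 cells) the same pairs had 0.70, 0.59, 0.57 and -0.31. Inside cluster 0 (6391 cells), where SHAS2 is rare, they had 0.12, 0.07, 0.06 and -0.02. In the finer groups inside cluster 1 the values were lower again, 0.26 for SHAS2 and VCAN and 0.28 for TNFAIP6 and VCAN in the TMEM178A group and 0.13 and 0.15 in the RBP4 group. Within cluster 1 of follicle 2 (1004 cells) SHAS2 and VCAN had 0.20 and TNFAIP6 and VCAN 0.02.

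Detection of SHAS2 and TNFAIP6 in the same cell exceeded the product of their shares in both follicles. In thinned cells of follicle 1, 12.3% had both SHAS2 and TNFAIP6, against 8.41% from the product, an excess of 1.47-fold. In follicle 2 it was 0.258% against 0.150%, or 1.72-fold, from 20 cells with both, although the correlation there was 0.04. Inside clusters 0, 1 and 3 of follicle 1 the excess was 1.12-fold, 1.08-fold and 1.26-fold, less than over all its cells. Inside clusters 0 and 1 of follicle 2 it was 1.67-fold and 1.30-fold, from 7 and 12 cells with both. All 3 of SHAS2, TNFAIP6 and VCAN were seen in 12.1% of thinned cells of follicle 1 (1135 of 9343) and 0.233% of those of follicle 2 (18 of 7738). In cluster 1 these shares were 38.3% and 1.20%, where most cells had VCAN in any case.

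Grouping thinned cells by their SHAS2 UMIs showed the sizes involved. In follicle 1, VCAN was at 1338 CPM in the 7735 cells with 0 SHAS2 UMIs, 4387 CPM in the 726 with 1, 6274 CPM in the 357 with 2 and 7926 CPM in the 525 with 3 or more. TNFAIP6 went 493, 2311, 3306 and 4510 CPM over the same cells. CD44 went 541, 375, 276 and 289 CPM, and the last pair overlaps. The steps were also present inside cluster 1 of follicle 1, where VCAN went from 4739 to 6124, 7023 and 8356 CPM and TNFAIP6 from 1846 to 3073, 3705 and 4683 CPM. In follicle 2 the 7670 cells with 0 SHAS2 UMIs had 426 CPM of VCAN and 227 CPM of TNFAIP6. The 39 cells with 1 had 841 and 164 CPM. CD44 was at 527 CPM in the former and 472 CPM (380 to 579) in the latter. Only 17 and 12 cells of follicle 2 had 2 and 3 or more SHAS2 UMIs, with VCAN at 1859 and 1833 CPM and TNFAIP6 at 741 and 1617 CPM, and a trend there would rest on those few cells. CD44 was at 671 CPM (508 to 869) and 650 CPM (462 to 889) in them, so the fall of CD44 seen in follicle 1 was not seen in follicle 2. Nor was it seen inside cluster 0 of follicle 1, where CD44 went 585, 533, 547 and 740 CPM, the last over 20 cells. Inside cluster 1 of follicle 1 the fall was present, with CD44 at 394, 328, 252 and 287 CPM, and the last pair overlaps.

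**Figure D3:**
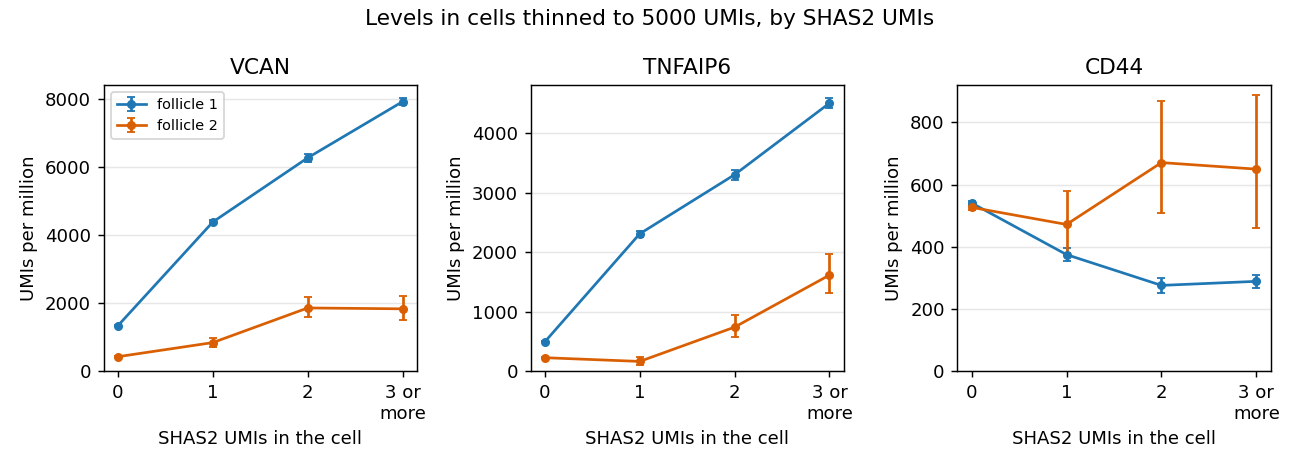
Level of VCAN, TNFAIP6 and CD44 (vertical axes, CPM) in cells thinned to 5000 UMIs and grouped by their SHAS2 UMIs (horizontal axes), for follicle 1 (blue) and follicle 2 (orange) with 95% exact counting intervals as bars. VCAN goes from 1338 to 7926 and CD44 from 541 to 289 in follicle 1, and the points for 2 and for 3 or more SHAS2 UMIs in follicle 2 hold 17 and 12 cells.

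The genes most like each member were ranked by the lower of its correlations in both follicles, among 8553 genes seen in at least 5% of the cells of each. For VCAN they were PRCP (0.50 in follicle 1, 0.39 in follicle 2), INHBA (0.73, 0.34), PDCD4 (0.57, 0.33), ENSSSCG00000031023 (0.38, 0.32) and S1PR1 (0.67, 0.31). INHBA encodes the activin and inhibin beta A subunit, S1PR1 a receptor for sphingosine-1-phosphate. For CD44 they were SERPINE2 (0.26, 0.37), IL33 (0.23, 0.24), CDH2 (0.23, 0.34), INHA (0.23, 0.39) and AMIGO2 (0.22, 0.33). For SHAS2 they were VCAN, RSPO3 (0.41, 0.11), APOA1 (0.35, 0.10), INHBA (0.57, 0.10) and KTN1 (0.47, 0.10), with little in follicle 2, where SHAS2 is rare. TNFAIP6 had CDO1 (0.19, 0.12), ENSSSCG00000011147 (0.28, 0.10), SBSN (0.37, 0.10), BMPR1B (0.31, 0.09) and BTG1 (0.17, 0.09). PTX3 had ZBTB16, PTGES, ZEB2, TGM2 and PCMTD1, none above 0.10. VCAN and CD44 therefore had partners of some strength in both follicles, and they were different genes. In follicle 1 alone, NAV2 ranked highest with SHAS2 (0.60) and with TNFAIP6 (0.50), a pair of values picked after they were seen.

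Other genes of hyaluronan production and turnover were set against all genes in the same way. Of 56 symbols listed by role, 1 (TMEM2) is a former symbol of CEMIP2, also listed. The other 55 were all in the deposited list, and 32 had 200 UMIs in a follicle. Of these, 3 were at least 2-fold lower in follicle 2, 1 was at least 2-fold higher and 28 lay between, beside 1.82% of all genes at least 2-fold lower and 0.667% at least 2-fold higher, with a median log2 ratio of -0.18 beside -0.00 over all 10049 genes. The other synthase genes were scarce, HAS1 at 0.584 and 0.734 CPM and HAS3 at 5.01 and 5.68 CPM. All 7 genes that supply the UDP-sugars from which hyaluronan is made lay between: GFPT2 at 224 and 192 CPM, UAP1 at 354 and 384 CPM, UGDH at 101 and 95.9 CPM, and UGP2, GFPT1, GNPNAT1 and PGM3 from 34.8 to 105 CPM. So the precursor genes were alike where SHAS2 differed 28.5-fold. GFPT2 was at 289 CPM in cluster 1 and 204 CPM in cluster 0 of follicle 1, and at 237 and 193 CPM in follicle 2.

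Among link proteins and receptors, HAPLN1, which joins versican to hyaluronan, was at 7.49 CPM in follicle 1 and 3.52 CPM in follicle 2 (log2 ratio -1.09), and at 18.2 and 7.28 CPM in cluster 1. HMMR, another hyaluronan-binding protein that is also a gene of dividing cells, was at 56.5 and 70.5 CPM in cluster 3 and 5.01 and 2.61 CPM over all cells. Inter-alpha-trypsin inhibitor is a protein that reaches the follicle from blood. Its light-chain gene AMBP was at 0 in both follicles. The heavy-chain genes ITIH1, ITIH2 and ITIH3 had 1, 0 and 16 UMIs in follicle 1 and 3, 1 and 21 in follicle 2. ITIH4 and ITIH5, of the same gene family, were at 4.86 and 4.51 CPM and at 3.70 and 2.84 CPM.

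Among genes of breakdown, HYAL2, a hyaluronidase, was at 111 and 100.0 CPM and CEMIP2 at 7.17 and 8.24 CPM. CEMIP, whose product helps to degrade hyaluronan, was at 0.162 CPM in follicle 1 and 46.1 CPM in follicle 2, a ratio of 285 (180 to 481). Its highest level was 869 CPM in cluster 2, which had cells of follicle 2 only. In clusters 3, 4, 1 and 0 of follicle 2 it was at 19.7, 18.2, 15.1 and 6.05 CPM, against 0.272, 0, 0.349 and 0.0924 CPM in follicle 1. Free CEMIP RNA was not gauged, so these lower levels are not read as mRNA made by those cells. Theca and stroma markers summed to 311 CPM in cluster 2. Most of this came from TAGLN at 202 CPM and ACTA2 at 60.7 CPM, and the rest of the list added little. The part of these markers in the CEMIP difference was not tested. Of the proteases that cut versican, ADAMTS1 was at 264 and 214 CPM, ADAMTS4 at 25.9 and 10.1 CPM (log2 ratio -1.35), ADAMTS9 at 9.12 and 6.38 CPM and ADAMTS5 at 0.557 and 1.51 CPM.

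Of 16 inducers and their receptors, 13 had enough UMIs and 1, PTGS2, was at least 2-fold lower in follicle 2, beside 1.82% of all genes, so nothing is read from the count. PTGS2, the enzyme of prostaglandin synthesis, was at 8.56 and 0.202 CPM (log2 ratio -5.41), and at 28.7 and 0.135 CPM in cluster 1. AREG, an EGF-like ligand, had the opposite order, with 2776 CPM in follicle 1 and 5321 CPM in follicle 2, and 1065 and 4986 CPM in cluster 1. EREG, a related ligand, was at 29.3 and 16.0 CPM, and at 59.0 and 17.3 CPM in cluster 1. Their receptor EGFR was at 33.9 and 24.1 CPM. BMPR1B, a receptor for bone morphogenetic proteins, was at 843 and 553 CPM, and at 1536 and 828 CPM in cluster 1. BMPR2, TGFBR1, ACVR1B, SMAD2, SMAD3 and SMAD4, the other receptors and the signal carriers of that family, ranged from 10.4 to 107 CPM in follicle 1 and from 12.6 to 91.4 CPM in follicle 2. The gonadotropin receptors were scarce, LHCGR at 9.01 and 11.2 CPM and FSHR at 1.80 and 2.16 CPM. FSHR was at 6.08 CPM in cluster 1 of follicle 1 and 38.1 CPM in cluster 2 of follicle 2.

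The members lie on 4 chromosomes of Sscrofa11.1: SHAS2 (ENSSSCG00000005992) at chr4:17583154-17613524, TNFAIP6 (ENSSSCG00000023716) at chr15:862013-881352, PTX3 (ENSSSCG00000011727) at chr13:97273594-97279570, VCAN (ENSSSCG00000014136) at chr2:91682177-91811674 and CD44 (ENSSSCG00000013297) at chr2:25788699-25884209. The 250 bases before the start of TNFAIP6 are shown because its level varied with that of VCAN across the cells of follicle 1. They come from RefSeq on Sscrofa11.1, chr15:881353-881602 on the minus strand, written 5′ to 3′. Capitals mark matches, on either strand, to the CCAAT box (CCAAT), the core of the cAMP response element (TGACG) and the AP-1 site (TGANTCA).
TNFAIP6: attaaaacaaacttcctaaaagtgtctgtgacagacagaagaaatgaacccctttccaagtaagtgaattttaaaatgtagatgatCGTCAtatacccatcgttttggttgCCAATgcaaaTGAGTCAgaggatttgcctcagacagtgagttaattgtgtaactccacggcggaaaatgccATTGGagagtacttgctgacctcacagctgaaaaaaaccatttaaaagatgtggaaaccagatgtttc
The sequence is 38.8% G and C and has 2 CCAAT boxes, 1 AP-1 site and 1 core of the cAMP response element. The TATA box (TATAAA), the GC box (GGGCGG) and the full cAMP response element (TGACGTCA, which contains the core) were also searched and are not in this window. Of 20664 promoters of the same length, 32.0% hold CCAAT, 44.4% GGGCGG, 19.2% TGACG, 5.48% TGANTCA, 10.4% TATAAA and 1.63% TGACGTCA. A match is a description of letters and not a site in use.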

How the data were processed

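Somatic cells of antral follicle 1 and antral follicle 2 (replicate 1 only in each) were measured as 10x Genomics 3′ tags. The deposited values are whole UMI counts made by the authors with Cell Ranger 6.0.2 on Sscrofa11.1, with no normalisation. Cells had 2000 to 5000 genes and under 7% mitochondrial UMIs (13 genes). Members were matched by symbol; the members and lists were chosen with earlier results of these data known. UMIs were summed per follicle or cluster and divided by all UMIs (CPM), with exact Poisson intervals for levels, Clopper-Pearson intervals for shares and exact conditional intervals for ratios, all at 95%. For red-cell barcodes the divisor left out haemoglobin UMIs. A count of 0 was given a limit of 3 counts. Genes with 200 UMIs on either side were compared with a 2-fold threshold. Correlations used log(1 + 10000 × UMIs / total).

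Clusters came from Seurat 5.3.0 in R 4.3.3: 2000 variable genes without the members and pathway genes (60 left out), anchor integration, 40 components and resolution 0.24, the lowest in steps of 0.02 that gave 6 clusters. Resolution 0.8 gave the 12 finer groups. Clusters were described by the genes with at least 50 CPM highest over the other cells. The other steps ran in Python 3.11.15, with tables in pandas 2.3.3, intervals from scipy 1.17.1, neighbours from scikit-learn 1.9.0, thinning in numpy 2.4.6 and plots in matplotlib 3.10.9. The summing and ratio steps were tested on simulated data. Red-cell barcodes had at least 20% haemoglobin UMIs, leukocyte-like barcodes at least 10 UMIs over at least 3 of 10 immune markers, taken from all barcodes.

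Pathway genes were named if at 10 CPM or more in a follicle or in a cluster of at least 50 cells, or at least 2-fold different between follicles with at least 200 UMIs in a follicle; for each member, the 5 genes with the highest lower correlation were named. Alternatives were 500 to 6000 genes, a mitochondrial limit of 10%, all barcodes, removal of the 6.9% of cells with the highest artificial-neighbour doublet score, totals without mitochondrial and 63 ribosomal protein genes, the mean of per-cell CPM, thinning to 5000 UMIs, Spearman correlation, no integration, 20 components, another seed, clustering with the members included, and leaving out shared barcodes. Promoters of the other members are not reported here.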

Additional observations from a re-analysis of the deposited data

Results flagged for a closer look

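Among clusters with at least 50 cells in each follicle, a pair of results had opposite directions in the follicles with both counting intervals clear of no difference, and in each case the difference between follicles was not tested. PTX3 in cluster 0 over all other cells had a log2 ratio of 0.76 in follicle 1 (6.68 and 3.94 CPM) and -0.38 in follicle 2 (3.13 and 4.08 CPM). All these levels lie under the limits set by red-cell barcodes (281 and 40.2 CPM) and leukocyte-like barcodes (21.9 and 18.0 CPM). These references therefore do not tell them from background. The limits are upper bounds, and PTX3 was at 1.47 CPM (1.04 to 2.02) in cluster 1 of follicle 1. VCAN in cluster 4 over all other cells had -0.89 in follicle 1 (1117 and 2072 CPM) and 1.07 in follicle 2 (875 and 416 CPM). The level in cluster 4 itself differed 1.28-fold (1.20 to 1.36), and the level in the other cells differed more. The 10 immune markers summed to 2.99 CPM in cluster 4 of follicle 1 and 136 CPM in follicle 2, where LAPTM5 was the most abundant at 28.1 CPM and CD3E was at 0, and their part in the VCAN difference was not tested.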

How the results depend on the processing

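No paired analysis was possible because each follicle has replicate 1 only, which also leaves nothing to leave out in turn. SHAS2 kept its ratio between follicles within -4.90 to -4.73 on the log2 scale and PTX3 within -0.98 to -0.68, both inside their counting intervals. For follicle 2 over follicle 1, TNFAIP6 moved to -2.10 and VCAN to -2.31 and CD44 to 0.05 with 500 to 6000 genes, and to -2.09, -2.34 and 0.04 with all barcodes. Thinning gave -2.07, -2.30 and 0.07. The mean of per-cell CPM gave -2.11 for TNFAIP6 and 0.05 for CD44, removal of high doublet scores -2.06 for TNFAIP6, and totals without mitochondrial and ribosomal protein genes -2.25 for VCAN and 0.13 for CD44. All directions were kept, and the cause of the shifts was not tested. Leaving out shared barcodes, an alternative chosen after seeing the data, gave -4.84, -2.02, -0.79, -2.27 and 0.11 for SHAS2, TNFAIP6, PTX3, VCAN and CD44.

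The count of members with a higher share of cells in follicle 1 was 5 in every setting tried, although the order is not read for CD44, nor for PTX3 before thinning. Pairs correlated at 0.1 or more numbered 3 in follicle 1 throughout and in follicle 2 went from 1 to 2 with 500 to 6000 genes, 2 with all barcodes and 0 with thinning. The correlation of VCAN and CD44 in follicle 2 turned to 0.12 and 0.14 when 500 to 6000 genes or all barcodes were used, and the cause was not tested. Among clusters of at least 50 cells, the one richest in SHAS2 had SHAS2, TNFAIP6 and VCAN at least 2-fold higher in follicle 1 in every clustering tried. In follicle 2 it had SHAS2 and VCAN, except without integration, where the cell-division cluster took its place with SHAS2 and PTX3. With 20 components the cluster nearest cluster 1 had 6138 cells, of which 27.4% were from cluster 1, and the log2 ratios over other cells became -1.58 for SHAS2, -1.66 for TNFAIP6, 0.41 for PTX3, -0.48 for VCAN and 0.15 for CD44 in follicle 1, and 0.82 for PTX3 and 0.08 for CD44 in follicle 2, and the cause was not tested. Without integration TNFAIP6 had -0.52 in follicle 2, where the nearest cluster held 65.5% of cluster 1, and the cause was not tested. Of the cluster ratios, 21 of 30 stayed within their interval with another seed, where the nearest clusters held 50.6% of cluster 1 and 59.3% of cluster 0, 27 of 30 with the members included in clustering and 18 of 30 with high doublet scores removed. With 20 components 19 did and 7 changed sign, and without integration 19 did, 9 moved and 1 changed sign. The resolution that gave 6 clusters was 0.26 with another seed, 0.22 with the members included and 0.16 without integration, in place of 0.24. These alternatives therefore changed the resolution as well, and its part was not separated.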

Other observations

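Barcodes outside the limits showed the same order of follicles for SHAS2, TNFAIP6 and VCAN, with differences of unlike size. The 4595 barcodes of follicle 1 under 2000 genes had 106 CPM of SHAS2 (98.6 to 113), 970 CPM of TNFAIP6 and 2552 CPM of VCAN, and the 7397 of follicle 2 had 1.69 CPM (1.03 to 2.62), 101 CPM and 210 CPM. CD44 was at 303 and 226 CPM in them. Barcodes over 5000 genes, 139 and 166 in number, had 68.2 and 1.88 CPM of SHAS2, 687 and 135 CPM of TNFAIP6, and 1802 and 514 CPM of VCAN. Barcodes with 2000 to 5000 genes and 7% or more mitochondrial UMIs, 193 and 142 in number, had smaller differences for SHAS2 and TNFAIP6, with 25.4 CPM (18.4 to 34.2) and 4.38 CPM (1.61 to 9.54) of SHAS2, 396 and 242 CPM of TNFAIP6, and 1170 and 333 CPM of VCAN.

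Other marker lists gave the following sums in follicle 1 and follicle 2. Cumulus markers summed to 950 and 899 CPM, mural markers to 4982 and 7724 CPM (AREG the most abundant), and theca or stroma markers to 9.80 and 27.8 CPM. Immune markers summed to 3.50 and 7.89 CPM, endothelial markers to 48.9 and 56.4 CPM with CDH5 at 0, and red blood cell markers to 2.55 and 46.0 CPM, nearly all HBB. Markers of dividing cells summed to 89.6 and 34.1 CPM, and to 1214 and 1431 CPM in cluster 3. Of the oocyte markers GDF9 alone was seen, at 4.95 and 5.17 CPM, with ZP2, ZP3, ZP4 and BMP15 at 0.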
